A study of Mus musculus with 16 samples.

Results

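The genes described here are 35 genes of cholesterol and fatty acid synthesis, chosen by name as those rows of the deposited gene count table that carry the symbol of a listed pathway member. Each symbol was found once among 45706 gene rows, and all 35 passed the filter on low counts in each comparison. They comprise 7 genes of the mevalonate pathway, 11 of the route from squalene to sterol, 5 sterol sensors and regulators, 2 sterol transporters, 4 genes of fatty acid synthesis and 6 of desaturation and elongation. The rule names genes and uses no measured value.

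RNA came from the hypothalamus of mice on a C57Bl/6N background that were fed chow and collected in the morning in the random-fed state, at 12 weeks of age per the treatment protocol and at 10 to 12 weeks per the extraction protocol. All groups carried a ROSA-STOP allele of the ribosomal protein L10a fused to GFP, which Cre recombinase switches on in PNOC neurons, the cells that express prepronociceptin. Animals labelled control are described as Lepr-flox, and animals labelled Pnoc Lepr deletion lack, per that label, the leptin receptor gene Lepr in those neurons. The labels do not state the Cre allele of the control animals. Tissue of 4 animals was pooled per sample, with 4 control pools (1 to 4) and 4 Lepr-deletion pools (5 to 8). From each lysate an aliquot was kept as input, the RNA of the whole hypothalamus, and GFP-tagged ribosomes were precipitated to give the pulldown, so that 16 libraries formed 4 groups of 4. A pool averages its animals, and the tagged cells are all Cre-expressing cells of the hypothalamus rather than a single cell type.

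Cholesterol is made from acetyl-CoA through mevalonate, farnesyl diphosphate, squalene and lanosterol, and fatty acids are made from the same precursor through malonyl-CoA and then elongated and desaturated. When membrane sterol is low, SCAP escorts the SREBP proteins (genes Srebf1 and Srebf2) from the endoplasmic reticulum to the Golgi, where they are cut and released to switch on these enzymes, and the INSIG proteins hold the SCAP complex back when sterol is plentiful. The adult brain makes its own cholesterol, and astrocytes and myelinating oligodendrocytes are known as its main producers.

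Promoters of 6 members that the results turn on are printed here to show where they carry motifs through which the pathway is known to be switched on. Promoters were taken from a RefSeq table for GRCm38.p6, each from 250 bases before to 50 bases after an annotated start, in which 27 of the 35 members were listed. The motifs searched, on both strands, were the core of the sterol regulatory element, CACCCCAC, the NF-Y box, CCAAT, and the E-box, CACGTG. No motif contains another, and single matches can overlap. Capitals mark the matches, of which ATTGG is the NF-Y box read from the other strand. The windows run from 240 bases upstream to the base before the start, on GRCm38.p6: Hmgcs1 at chr13:119690111-119690350, plus strand, Insig1 at chr5:28071172-28071411, plus strand, Ebp at chrX:8193513-8193752, minus strand, Pmvk at chr3:89454301-89454540, plus strand and Fads2 at chr19:10101504-10101743, minus strand. That of Insig2, at chr1:121332663-121332829, minus strand, stops 74 bases upstream because the rest lies inside the annotated gene.
Hmgcs1: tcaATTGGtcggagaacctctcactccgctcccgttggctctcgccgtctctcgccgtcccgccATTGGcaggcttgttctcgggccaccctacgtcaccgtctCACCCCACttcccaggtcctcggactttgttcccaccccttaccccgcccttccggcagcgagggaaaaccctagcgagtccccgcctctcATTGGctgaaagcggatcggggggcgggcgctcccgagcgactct
Insig1: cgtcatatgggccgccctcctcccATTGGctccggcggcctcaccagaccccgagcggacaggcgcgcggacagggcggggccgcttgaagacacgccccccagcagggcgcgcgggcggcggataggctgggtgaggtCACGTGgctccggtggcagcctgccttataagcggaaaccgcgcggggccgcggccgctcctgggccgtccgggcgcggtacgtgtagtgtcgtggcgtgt
Insig2: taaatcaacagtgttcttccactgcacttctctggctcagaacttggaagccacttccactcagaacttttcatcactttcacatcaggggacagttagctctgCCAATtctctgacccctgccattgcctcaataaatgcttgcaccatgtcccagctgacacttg
Ebp: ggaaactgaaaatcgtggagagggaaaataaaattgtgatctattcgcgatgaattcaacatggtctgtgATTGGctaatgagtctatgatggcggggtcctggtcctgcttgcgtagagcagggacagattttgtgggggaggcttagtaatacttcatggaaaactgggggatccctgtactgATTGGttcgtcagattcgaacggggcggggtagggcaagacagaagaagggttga
Pmvk: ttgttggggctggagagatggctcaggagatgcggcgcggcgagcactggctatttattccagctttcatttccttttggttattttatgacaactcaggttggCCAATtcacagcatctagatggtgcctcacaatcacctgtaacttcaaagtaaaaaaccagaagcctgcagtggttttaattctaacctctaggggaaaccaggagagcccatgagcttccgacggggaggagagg
Fads2: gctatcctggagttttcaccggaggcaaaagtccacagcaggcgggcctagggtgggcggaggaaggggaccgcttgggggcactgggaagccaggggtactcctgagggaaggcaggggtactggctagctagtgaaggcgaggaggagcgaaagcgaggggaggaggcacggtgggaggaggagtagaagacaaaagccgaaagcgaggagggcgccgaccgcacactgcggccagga

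The window of Hmgcs1 held 3 NF-Y boxes and 1 sterol element core, that of Insig1 an NF-Y box and an E-box, that of Ebp 2 NF-Y boxes and those of Insig2 and Pmvk 1 each. The whole first listed promoter of Insig2 held 3 NF-Y boxes, at -136, -46 and -29, of which only that at -136 lies in the printed part. Fads2 held no match in its window. Over whole promoters, 22 of 27 members had an NF-Y box (81.5%), against 41.1% of 27025 genes with a promoter in the table. An E-box was present in 6 of 27 members (22.2%) and in 8.09% of all genes. The sterol element core was present in Hmgcs1 and Acat2 (7.41%) and in 3.3% of all genes. A match is a run of letters and shows no binding, and the letters searched are a single version of motifs that vary.

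**Figure D1:**
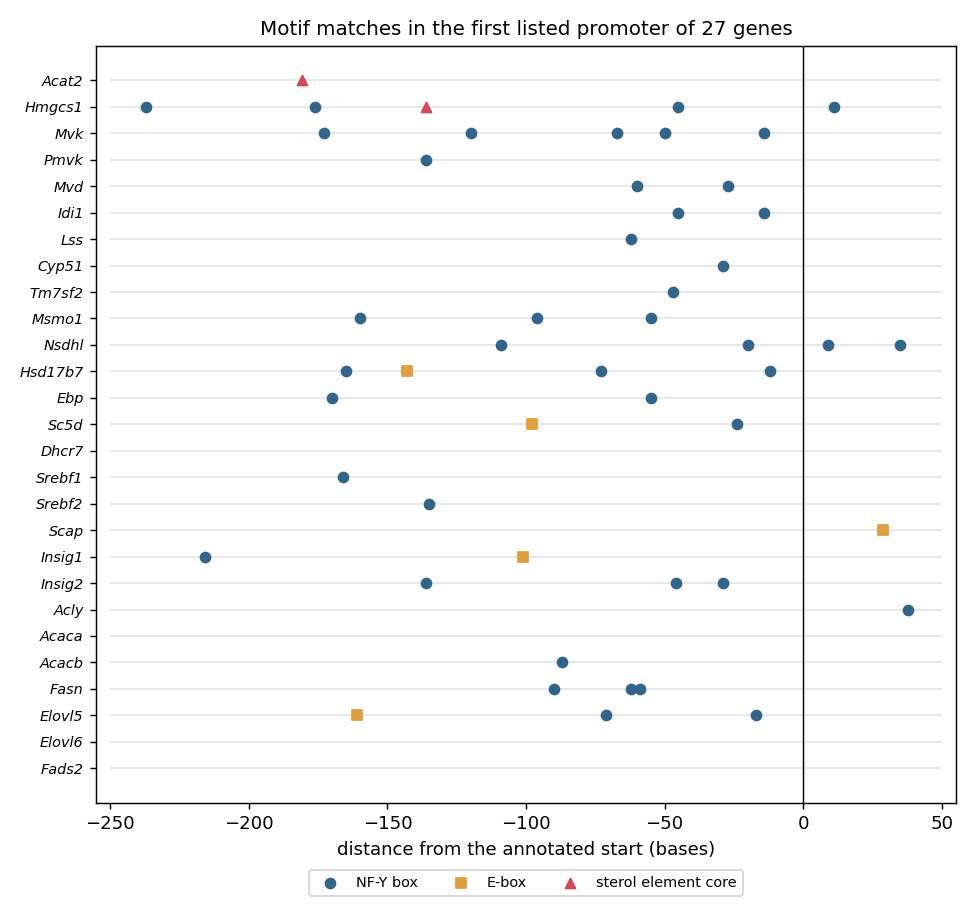
Position of each motif match along the first listed promoter of 27 members, in bases from the annotated start (x axis, from 250 before to 50 after), with 1 row per gene. Circles are NF-Y boxes, squares E-boxes and triangles sterol element cores. Mvk held 5 NF-Y boxes, and Fads2, Elovl6, Acaca and Dhcr7 had none of the motifs in the promoter drawn.

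Estimated counts summed to between 64435952 and 78623636 per library, and the lowest count of any member in any library was 104. Levels are given as CPM (counts scaled to library size) after scaling by the trimmed mean of M-values (TMM), and fold changes as log2 values with a standard error (SE). The members held 0.204% to 0.225% of all counts in control input and 0.15% to 0.173% in control pulldown. Mitochondrial ribosomal RNA held 26.8% to 28.1% of control input, 23.7% to 25.9% of Lepr-deletion input and 0.0622% to 0.0844% of the pulldown libraries. The targeted gene Lepr had 1.42 to 1.86 CPM in control pulldown and 2.42 to 2.82 CPM in the pulldown labelled Lepr deletion, and these totals over the gene cannot show which part was removed. Pnoc had 7.29 to 10.1 CPM in control pulldown against 2.55 to 2.97 CPM in control input.

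The first comparison asked which of these genes were over- or under-represented on the ribosomes of control PNOC neurons relative to the whole hypothalamus. Desaturase transcripts were far lower in the pulldown, as was Srebf1, while Insig2, Pmvk and Ebp were higher. In edgeR's quasi-likelihood test, with p adjusted by Benjamini-Hochberg at a threshold of 0.05, 26 of the 35 members were lower in control pulldown, 4 were higher and 5 did not pass. Of the 17570 genes tested, 34.6% were lower and 30.1% higher. The members' median log2 fold change was -0.52, against -0.02 for all genes tested. Input RNA came from all cells of the tissue, and in such bulk samples fewer cells of a type and less RNA per cell cannot be told apart.

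**Figure D2:**
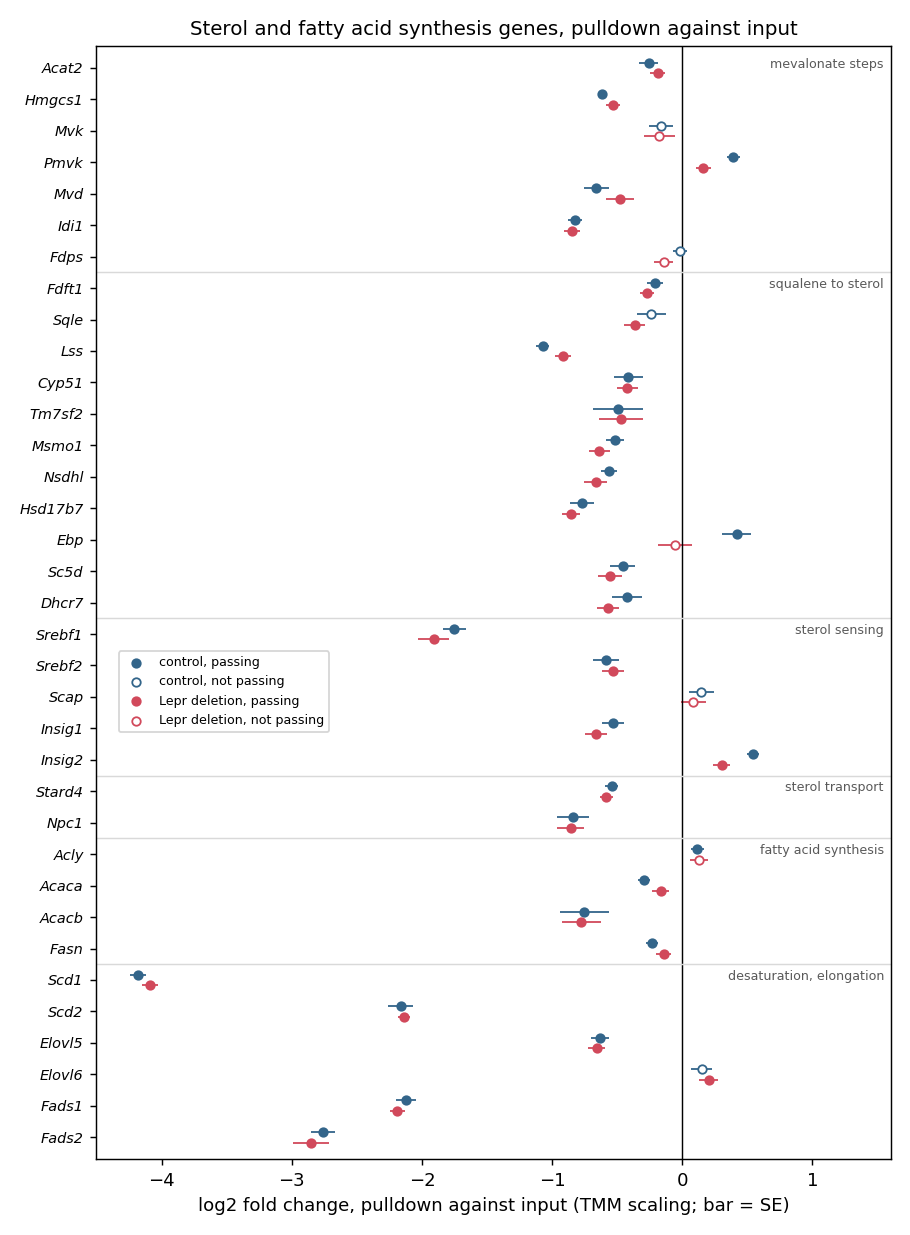
Log2 fold change of pulldown against input (x axis, TMM scaling) for the 35 members, grouped by role, in control pools (blue) and Lepr-deletion pools (red). Bars are SE, filled points passed at an adjusted p of 0.05 and open points did not. Scd1, Fads2, Scd2, Fads1 and Srebf1 lie farthest left in both genotypes, and Insig2 and Pmvk lie right of 0 in both.

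Among the desaturation and elongation genes 5 of 6 were lower in control pulldown and Elovl6 did not pass. Scd1 (ENSMUSG00000037071, chromosome 19, 44394450 to 44407709), a stearoyl-CoA desaturase that puts a double bond into saturated fatty acids, had 210.2, 219, 219 and 239 CPM in the input of control pools 1 to 4 and 12.8, 11.9, 11.6 and 13.3 CPM in their pulldown. The groups were far apart, each pulldown library lying below every input library, and the log2 fold change was -4.18 (SE 0.06, adjusted p = 5.15e-13). Its neighbour Scd2 (chromosome 19, 44293676 to 44306864), the desaturase form that is abundant in brain, had 772, 799.8, 884 and 952 CPM in input and 160.2, 191, 201 and 219 CPM in pulldown. Here too the groups did not overlap, pool 1 being lowest in both, and the change was -2.16 (SE 0.10, adjusted p = 3.93e-09). Near-identical stretches of Scd1 and Scd2 can share reads, so the split between them is uncertain.

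Fads2 (chromosome 19, 10062765 to 10101503), the delta-6 desaturase that starts the synthesis of long polyunsaturated fatty acids, had 20.8, 20.1, 24.3 and 22.7 CPM in control input and 3.21, 3.45, 3.64 and 2.83 CPM in pulldown. All pulldown libraries lay well below input, with a log2 fold change of -2.76 (SE 0.09, adjusted p = 4e-10). Fads1 (chromosome 19, 10182877 to 10196874), the delta-5 desaturase of the same route, had 123, 131, 133 and 143 CPM in input and 26.3, 31.3, 32.1 and 33.6 CPM in pulldown. The groups were again separate, with a change of -2.12 (SE 0.08, adjusted p = 6.39e-10). Elovl5, which lengthens polyunsaturated fatty acids, was lower by a smaller amount, with a log2 fold change of -0.63 (SE 0.07). Elovl6, which lengthens saturated fatty acids of medium chain, was at 0.15 (SE 0.08, adjusted p = 0.139), with overlapping groups. With the pool as a block, which compares each pulldown with the input of its own lysate, it passed (adjusted p = 0.00315).

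**Figure D3:**
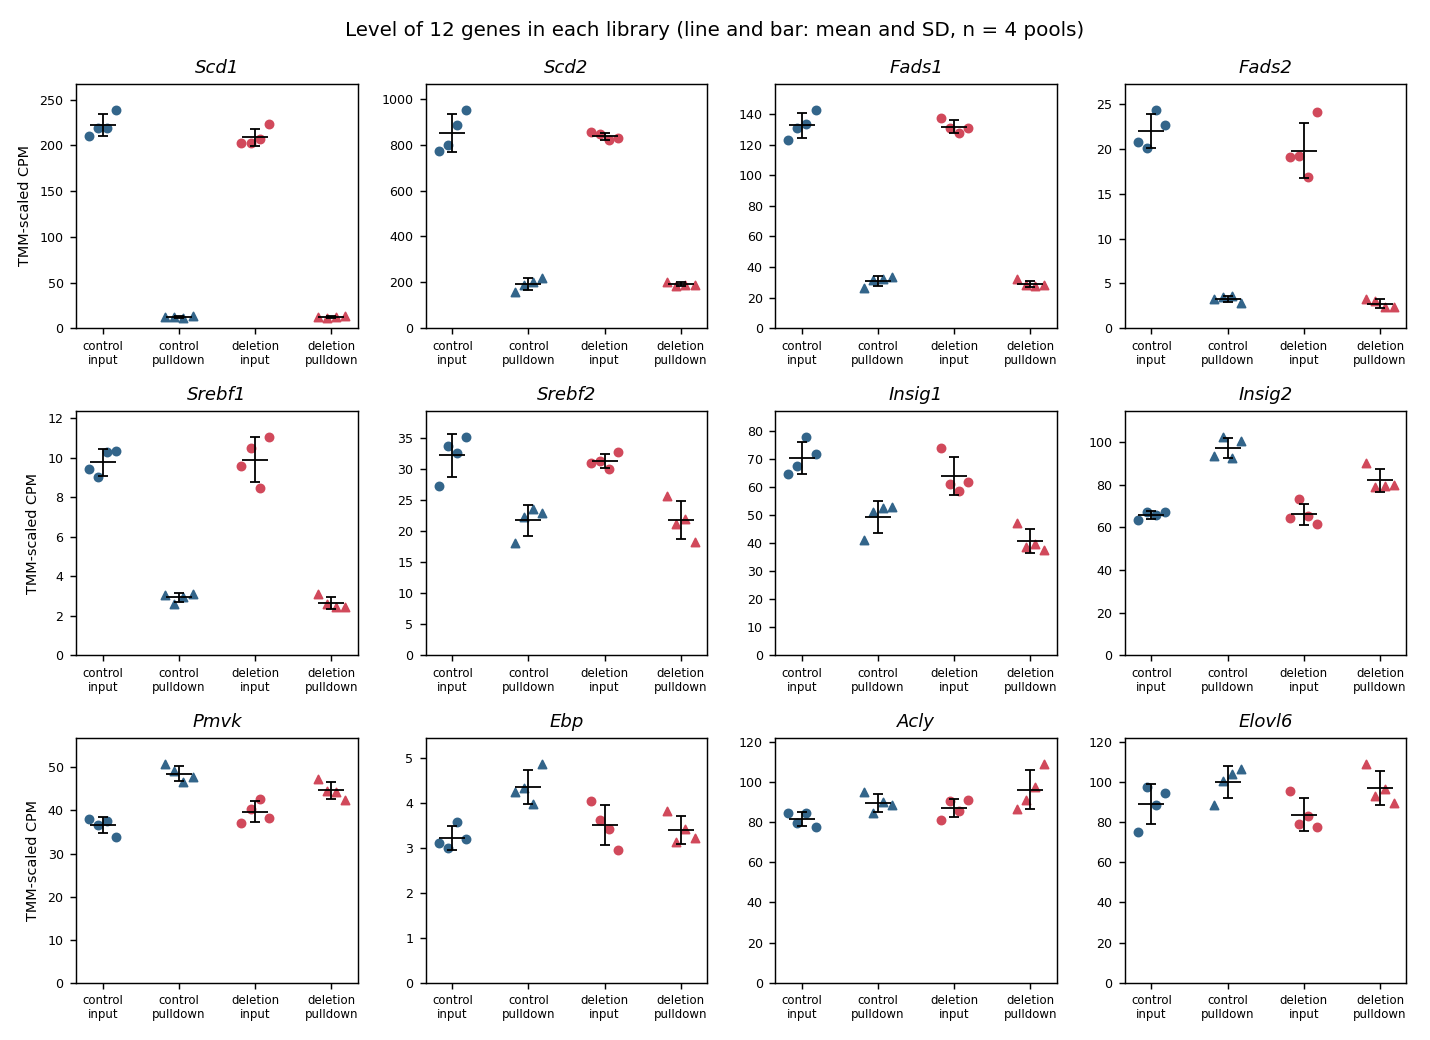
TMM-scaled CPM (y axes, from 0) of 12 members in each of the 16 libraries, input as circles and pulldown as triangles, control in blue and Lepr deletion in red. Lines and bars are the mean and SD of 4 pools. Pulldown lies far below input in both genotypes for Scd1, Scd2, Fads1, Fads2 and Srebf1 and above it for Insig2.

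The sterol sensors split by gene. Srebf1 (ENSMUSG00000020538, chromosome 11, 60199084 to 60224186), which encodes the SREBP form that drives mainly fatty acid synthesis, had 9.41, 9.01, 10.3 and 10.4 CPM in control input and 3.04, 2.62, 2.97 and 3.13 CPM in pulldown. The pulldown libraries were close together and all lower, with a log2 fold change of -1.75 (SE 0.09, adjusted p = 1.39e-08). Srebf2 (chromosome 15, 82147269 to 82205379), whose product drives mainly cholesterol synthesis, had 27.3, 33.7, 32.5 and 35.1 CPM in input and 18.1, 22.3, 23.5 and 22.9 CPM in pulldown. Pool 1 was lowest in both fractions, the groups did not overlap, and the change was -0.59 (SE 0.10, adjusted p = 0.000229). Srebf1 shares 114 bases with Rai1 in the annotation, and without a stated strand setting their reads there cannot be told apart.

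The pair of INSIG genes, whose proteins retain SCAP in the endoplasmic reticulum, differed in direction. Insig1 (chromosome 5, 28071412 to 28078662), the form that is itself an SREBP target, had 64.9, 67.5, 77.9 and 72.0 CPM in control input and 41.1, 51.3, 52.4 and 52.9 CPM in pulldown. Every pulldown library was lower than every input library, with a log2 fold change of -0.53 (SE 0.09, adjusted p = 0.000176). Insig1 shares 7251 bases with Gm35223, a long noncoding RNA gene, so its reads are not certain to be its own. Insig2 (chromosome 1, 121304353 to 121332662) had 63.5, 67.0, 65.7 and 67.2 CPM in input and 93.5, 102, 92.7 and 100.3 CPM in pulldown. Every pulldown library was higher, and its log2 fold change of 0.54 (SE 0.05, adjusted p = 9.81e-07) had the smallest p of the members that were higher. Scap, the escort protein's gene, was at 0.15 (SE 0.09, adjusted p = 0.198), and passed with the pool as a block (adjusted p = 0.0232).

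Of the 7 mevalonate pathway genes 4 were lower in control pulldown, Pmvk was higher and Mvk and Fdps did not pass. Pmvk (chromosome 3, 89454541 to 89469014), phosphomevalonate kinase, had 37.9, 36.6, 37.7 and 33.9 CPM in control input and 50.8, 49.2, 46.6 and 47.8 CPM in pulldown. The pulldown libraries were all higher than input, with a change of 0.39 (SE 0.05, adjusted p = 2.61e-05). Hmgcs1 (chromosome 13, 119690351 to 119708260), the cytosolic HMG-CoA synthase at the entry to the pathway, was lower at -0.61 (SE 0.04, adjusted p = 3.32e-08). Idi1, the isomerase of isopentenyl diphosphate, was at -0.82, Mvd, the decarboxylase that makes that compound, at -0.66, and Acat2, a cytosolic acetoacetyl-CoA thiolase, at -0.26. Mvk, mevalonate kinase, was at -0.17 (adjusted p = 0.135) and Fdps, farnesyl diphosphate synthase, at -0.01 (adjusted p = 0.825). Acat2 has a near copy in the mouse genome, with which its reads may be shared.

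From squalene to sterol 9 of 11 genes were lower, Ebp was higher and Sqle did not pass. Lss (chromosome 10, 76531565 to 76557139), lanosterol synthase, which closes the sterol rings, had 45.6, 44.1, 47.0 and 46.6 CPM in control input and 22.1, 21.2, 22.6 and 22.4 CPM in pulldown. The libraries of each fraction lay close together, with a log2 fold change of -1.07 (SE 0.05, adjusted p = 3.32e-09). Ebp (chromosome X, 8185329 to 8193512), the sterol delta-8 to delta-7 isomerase, had 3.10, 3.00, 3.59 and 3.19 CPM in input and 4.26, 4.34, 3.97 and 4.87 CPM in pulldown. All its pulldown libraries were higher, with a change of 0.42 (SE 0.11, adjusted p = 0.00534). Hsd17b7, a 3-ketosteroid reductase of the route, was at -0.77, Nsdhl, which removes the C4 carbons after oxidation, at -0.56, and Msmo1, the C4-methylsterol oxidase, at -0.52. Tm7sf2, a sterol reductase, was at -0.49, Sc5d, lathosterol desaturase, at -0.46, Dhcr7, 7-dehydrocholesterol reductase, at -0.43 and Cyp51, lanosterol demethylase, at -0.41. Fdft1, squalene synthase, was at -0.21, and shares 774 bases with Ctsb, so part of its reads may belong to that gene. Sqle, the squalene epoxidase, was at -0.24 (SE 0.11, adjusted p = 0.077) and passed with the pool as a block (adjusted p = 0.000425). Tm7sf2 was the weakest call, with an adjusted p of 0.0398 that was above 0.05 in 6 of 8 fits that left out 1 library, namely any input library or the pulldown library of pool 1 or 4.

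Both sterol transporters were lower in control pulldown. Npc1, which moves cholesterol out of lysosomes, was at -0.84 (SE 0.12, adjusted p = 7.72e-05), and Stard4, a cytosolic sterol carrier, at -0.54 (SE 0.05, adjusted p = 1.48e-06). Npc1 shares 8982 bases with Rmc1 in the annotation. Of the 4 genes of fatty acid synthesis 3 were lower and Acly was higher. Acacb, the mitochondrial form of acetyl-CoA carboxylase, was at -0.75 (SE 0.19), Acaca, its cytosolic form, at -0.29 (SE 0.05), with 19116 bases shared with the gene model Gm11437, and Fasn, fatty acid synthase, at -0.23 (SE 0.05). Acly, the citrate lyase that supplies cytosolic acetyl-CoA, had 84.5, 79.4, 84.6 and 77.5 CPM in control input and 95.0, 84.4, 90.1 and 88.5 CPM in pulldown. Its groups overlapped by a narrow margin, and its change of 0.12 (SE 0.05, adjusted p = 0.0484) did not pass in 5 of 8 fits that left out 1 library.

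The direction of most members turned with the scaling of the libraries. Scaling by library totals raised the median of all genes from -0.02 to 0.53 and called 13 members higher and 9 lower, with 76.2% of all calls higher against 46.5% under TMM. With limma on log2(TPM + 1), where TPM is a share of transcripts that divides by gene length, the median of all genes was 0.75, 84.3% of calls were higher, and 26 members were higher and 6 lower. Under 6 scalings (TMM, relative log expression, library totals, counts rescaled from TPM, and TPM with an added 1 or 0.1) the same call held in control for 9 members. Scd1, Scd2, Fads1, Fads2, Srebf1 and Lss were lower under all 6, and Insig2, Pmvk and Ebp were higher under all 6. The share of all genes that held a call under all 6 was not counted in either genotype. Library totals and the TPM scales raise all genes, so for the higher members only the scalings that leave the median of all genes near 0 bear on the call. Under relative log expression Insig2 was at 0.55, Pmvk at 0.40 and Ebp at 0.43, and with rescaled counts at 0.55, 0.47 and 0.45. For 21 of the other members the sign turned from negative to positive on the log2(TPM + 1) scale, Insig1, Srebf2 and Hmgcs1 among them, so that their direction is relative to TMM scaling. Relative to the median of all genes, the members' median was at -0.57 to -0.32 in all 20 settings run, TMM scaling included.

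**Figure D4:**
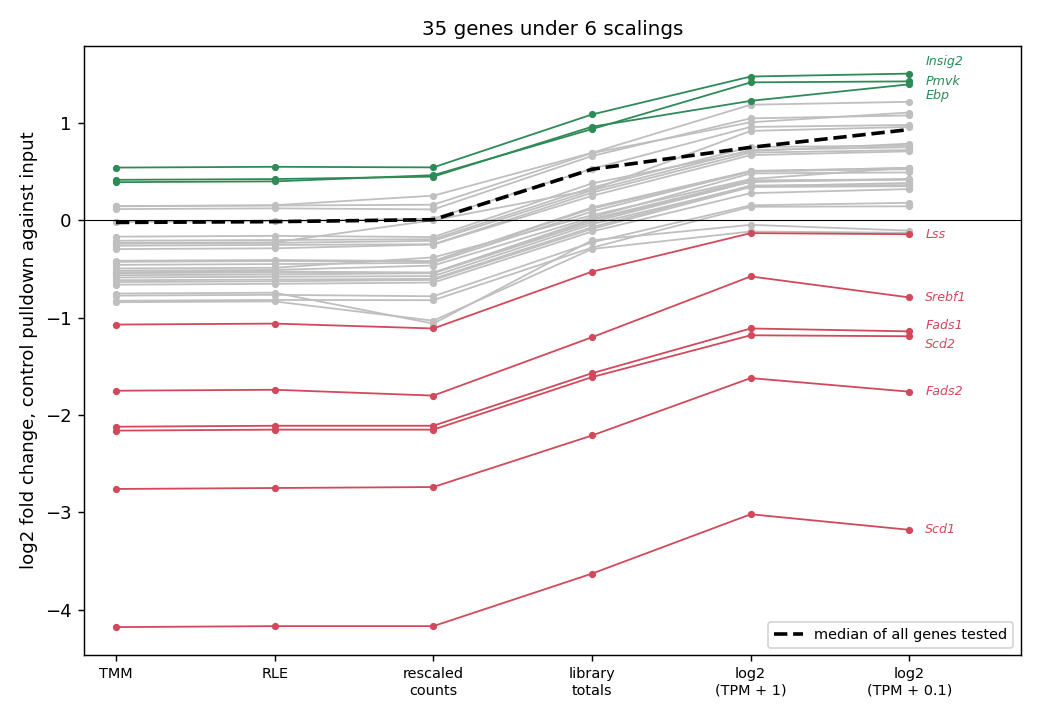
Log2 fold change of control pulldown against input (y axis) for 35 members under 6 scalings (x axis), 1 line per gene, with the median of all genes tested as a dashed line. Red lines are the 6 members lower under all 6 scalings, green lines the 3 members higher under all, and grey lines the others. The dashed line and the members rise together from TMM to the TPM scales, most grey lines crossing 0.

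On the TPM scale, which divides by length and allows levels of different genes to be compared, Scd2 was the most abundant member in control input at 198 ± 18.5 TPM (SD, n = 4), followed by Hmgcs1 at 68.2 ± 1.57 TPM. Scd1 at 58.5 ± 3.00 TPM and Pmvk at 53.7 ± 3.43 TPM came next and did not differ beyond their spread. In control pulldown Pmvk was first at 145 ± 4.06 TPM, followed by Insig2 at 93.2 ± 6.02 TPM, Hmgcs1 at 87.8 ± 3.29 TPM and Scd2 at 87.4 ± 12.8 TPM, the last 3 within their spread. Scd1 had 6.35 ± 0.442 TPM there. Srebf1 and Acacb were among the lowest members in both fractions, at 3.08 ± 0.383 and 0.717 ± 0.17 TPM in control input and 1.73 ± 0.126 and 0.668 ± 0.197 TPM in control pulldown. Summed over the 7 mevalonate genes, levels were 199 to 217 TPM in control input and 363 to 378 TPM in control pulldown. In TMM-scaled CPM the same sum was lower in pulldown, at 322 to 344 CPM in input and 255 to 259 CPM in pulldown. Summed over the 6 desaturation and elongation genes they were 350 to 418 TPM and 181 to 239 TPM, and 1260 to 1523 CPM and 331 to 421 CPM. The TPM scale raised the median of all genes in pulldown, so a rise in TPM between fractions does not show enrichment.

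Markers of cells other than neurons moved with the lower members. In control pulldown 12 of 12 astrocyte markers were lower (median log2 fold change -4.13), as were 12 of 12 oligodendrocyte markers (-4.42), 7 of 8 of oligodendrocyte precursors (-4.20), 10 of 10 of microglia (-4.44), 8 of 9 vascular markers tested (-3.11) and 8 of 8 of tanycytes and ependyma (-3.80). Summed astrocyte markers were at 3585 to 4029 CPM in control input and 528 to 591 CPM in pulldown, and summed oligodendrocyte markers at 1278 to 1650 and 131 to 152 CPM. All 13 neuron markers were higher, with a median of 0.66. Of the vascular markers 1 or 2 of 10 were at 0 counts in each control pulldown library, and of the microglial markers up to 2 of 10. Astrocyte and oligodendrocyte markers were above 0 in every library. Scd1, at -4.18, lay within the range of these medians, and Fads2, Scd2, Fads1 and Srebf1 lay between them and the median of all genes. The part of these cells in the members' values was not tested.

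Other genes of the same pathways came from lists written beside that of the members. Of 29 other sterol genes tested 16 were lower and 5 higher in control pulldown, with a median of -0.28. Abca1, which exports cholesterol from cells, was lower at -2.28, Soat1, which esterifies cholesterol, at -1.38, Lrp1, a lipoprotein receptor, at -1.14 and Npc2, the lysosomal partner of Npc1, at -0.74. Higher were Nr1h2, a liver X receptor, at 0.58, Lipa, lysosomal acid lipase, at 0.53, Osbpl1a, an oxysterol-binding protein relative, at 0.41 and Ggps1, which makes geranylgeranyl diphosphate, at 0.23. Of 32 other fatty acid genes 18 were lower and 6 higher, with a median of -0.22. Fabp7, a fatty acid binding protein of glia, was lower at -4.42, Acsbg1, an acyl-CoA synthetase, at -4.17, Cpt1a, which admits fatty acids to mitochondria, at -3.52 and Elovl2, an elongase, at -2.53. Higher were Acsl5, an acyl-CoA synthetase, at 0.73, Fabp3, a fatty acid binding protein, at 0.61, Mlycd, malonyl-CoA decarboxylase, at 0.57 and Elovl4, an elongase of very long chains, at 0.29.

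The same comparison in the Lepr-deletion pools gave 27 members lower, 3 higher and 5 that did not pass, with a median of -0.53 against -0.01 for all genes tested. Of 17423 genes tested, 32.8% were lower and 28.8% higher. By call, 26 members were lower in both genotypes, and Insig2 and Pmvk were higher in both. The share of all genes with the same call in both genotypes was not counted. Scd1 had 202.3, 202.3, 207 and 223 CPM in the input of pools 5 to 8 and 11.8, 11.4, 12.7 and 13.4 CPM in their pulldown, a change of -4.09 (SE 0.06, adjusted p = 1.24e-14). Scd2 had 853, 846, 819.6 and 830.3 CPM in input and 204, 186, 189 and 189 CPM in pulldown, a change of -2.14 (SE 0.05, adjusted p = 2.39e-13). In both genes the fractions were far apart in every pool.

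Fads1 had 138, 131, 127 and 131 CPM in Lepr-deletion input and 32.1, 28.2, 27.8 and 28.2 CPM in pulldown, a change of -2.19 (SE 0.06, adjusted p = 1.72e-12). Fads2 had 19.1, 19.2, 16.8 and 24.1 CPM in input and 3.30, 3.03, 2.33 and 2.37 CPM in pulldown, a change of -2.85 (SE 0.14, adjusted p = 8.61e-10). Srebf1 had 9.58, 10.5, 8.45 and 11.1 CPM in input and 3.09, 2.62, 2.43 and 2.47 CPM in pulldown, a change of -1.91 (SE 0.12, adjusted p = 1.13e-08). The pulldown of these 3 genes was lower in every pool, with no overlap between fractions.

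Srebf2 had 30.9, 31.3, 29.9 and 32.8 CPM in Lepr-deletion input and 25.7, 21.1, 21.9 and 18.3 CPM in pulldown, a change of -0.53 (SE 0.09, adjusted p = 0.000112). Insig1 had 73.9, 61.0, 58.7 and 61.9 CPM in input and 47.1, 38.5, 39.6 and 37.6 CPM in pulldown, a change of -0.66 (SE 0.08, adjusted p = 1.4e-05). For both, pool 5 was the highest pulldown library and still lay below all input libraries. Insig2 had 64.3, 73.2, 65.2 and 61.9 CPM in input and 90.3, 78.9, 79.7 and 79.7 CPM in pulldown, a change of 0.30 (SE 0.06, adjusted p = 0.000905). Pmvk had 37.2, 40.4, 42.8 and 38.3 CPM in input and 47.4, 44.5, 44.3 and 42.4 CPM in pulldown, a change of 0.16 (SE 0.06, adjusted p = 0.0266), and its groups overlapped. Elovl6 had 95.4, 78.9, 83.2 and 77.4 CPM in input and 109, 93.0, 96.5 and 89.6 CPM in pulldown, a change of 0.20 (SE 0.07, adjusted p = 0.0303), also with overlap.

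The last 2 calls rested on single libraries. Without the input library of pool 8, Insig2 alone of the members was higher, with Pmvk at an adjusted p of 0.0752 and Elovl6 at 0.0794, and without the pulldown library of pool 5 these were 0.0547 and 0.0755. Pmvk also did not pass without the input library of pool 5, nor Elovl6 without that of pool 6 or 7. Acaca at -0.16 (adjusted p = 0.0435) and Fasn at -0.14 (adjusted p = 0.0496) passed as lower by a narrow margin. Acly, at 0.13 (adjusted p = 0.114), passed with the pool as a block (adjusted p = 0.0444). Under all 6 scalings Scd1, Scd2, Fads1, Fads2, Srebf1 and Npc1 were lower in the Lepr-deletion pools. Insig2, Pmvk and Elovl6 were higher with relative log expression, at 0.31, 0.17 and 0.21, and with rescaled counts, at 0.29, 0.21 and 0.27. By library totals 12 members were higher and 14 lower, with a median of all genes of 0.44, and by limma on log2(TPM + 1) 25 were higher and 6 lower, with a median of 0.70. Glial markers were again lower in pulldown, 12 of 12 for astrocytes (median -3.85) and 12 of 12 for oligodendrocytes (-4.36). Of the other sterol genes 15 of 29 were lower and 5 higher in these pools (median -0.33), and of the other fatty acid genes 15 of 32 were lower and 7 higher (-0.14).

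The next comparison asked whether deletion of Lepr changed the level of these genes on the ribosomes of PNOC neurons. No member passed in pulldown in edgeR's quasi-likelihood test after Benjamini-Hochberg adjustment, where 0.641% of 16859 genes did. At an unadjusted p under 0.05 there were 8 of 35 members, against 19.8% of all genes, and by DESeq2 3 members passed, against 6.32%. Of the 35 members, 5 had groups that did not overlap, against 10% of all genes, and limma on log2(TPM + 1) called none. The members' median log2 difference was -0.07, against -0.01 for all genes, with 23 members at a negative and 12 at a positive value.

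Hmgcs1 had 109.5, 111, 113 and 114 CPM in control pulldown and 119, 131, 132 and 127 CPM in Lepr-deletion pulldown. Every deletion library was above every control library, pool 5 being nearest, and the log2 difference was 0.20 (SE 0.05, adjusted p = 0.0756). Insig2 had 93.5, 102, 92.7 and 100.3 CPM in control and 90.3, 78.9, 79.7 and 79.7 CPM in deletion pulldown. Every deletion library was below every control library, pool 5 again nearest, with a difference of -0.23 (SE 0.06, adjusted p = 0.084). Ebp had 4.26, 4.34, 3.97 and 4.87 CPM in control and 3.82, 3.14, 3.42 and 3.22 CPM in deletion pulldown, also without overlap, with a difference of -0.35 (SE 0.10, adjusted p = 0.111). These are the 3 members that DESeq2 called, at adjusted p of 0.00643 for Hmgcs1, 0.0107 for Insig2 and 0.0382 for Ebp. With all 16 libraries in 1 fit Hmgcs1 (adjusted p = 0.039) and Insig2 (adjusted p = 0.0292) passed, against 2.74% of 18530 genes. The authors' deposited results come from the same libraries, and the submitters' notes name DESeq2. They hold an adjusted p under 0.05 for Hmgcs1, Insig2 and Ebp in this comparison and for no other member. The share of all genes passing there was not counted.

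The other members without overlap were Lss, at 21.2 to 22.5 CPM in control and 22.6 to 25.5 CPM in deletion pulldown, and Nsdhl, at 14.3 to 15.4 and 11.5 to 14.03 CPM, with adjusted p of 0.382 and 0.249.

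Insig1 had 41.1, 51.3, 52.4 and 52.9 CPM in control pulldown and 47.1, 38.5, 39.6 and 37.6 CPM in deletion pulldown. Pool 1 lay well below the other control pools and pool 5 well above the other deletion pools, so that the groups overlapped, and the difference was -0.27 (SE 0.09, adjusted p = 0.156). Scap had 18.6, 22.7, 23.2 and 24.4 CPM in control and 21.3, 17.8, 18.5 and 15.9 CPM in deletion pulldown, with the same placing of pools 1 and 5 and a difference of -0.26 (SE 0.10, adjusted p = 0.185). The SREBP genes and the main desaturase differed by less than the spread between pools. Srebf1 was at -0.14 (SE 0.12, adjusted p = 0.546), Srebf2 at 0.01 (SE 0.11, adjusted p = 0.955) and Scd2 at 0.0047 (SE 0.08, adjusted p = 0.981), and each had overlapping groups.

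**Figure D5:**
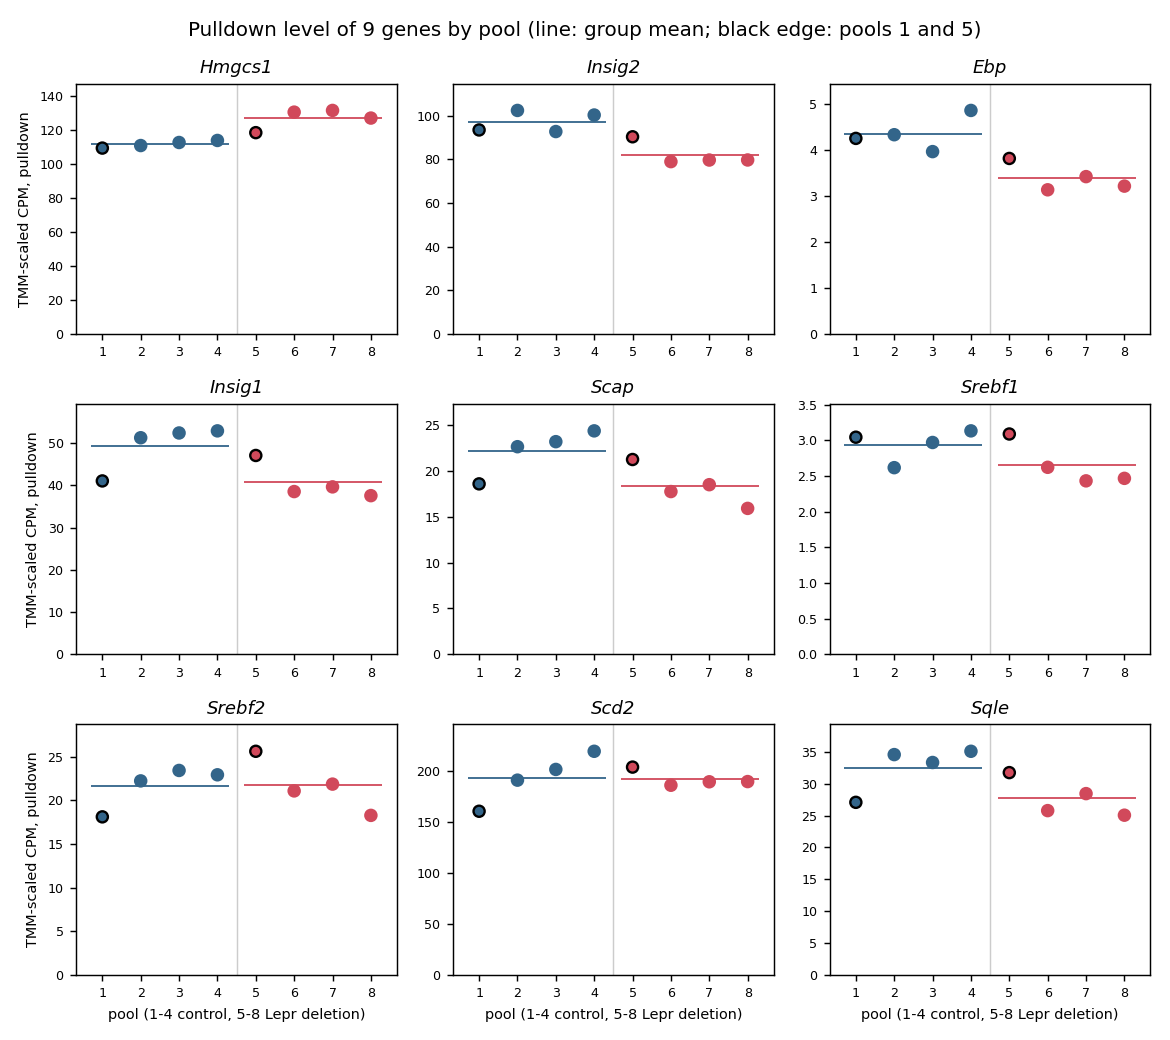
TMM-scaled CPM (y axes, from 0) of 9 members in the pulldown of each pool (x axis), control pools 1 to 4 in blue and Lepr-deletion pools 5 to 8 in red, with group means as lines and pools 1 and 5 ringed in black. Groups do not overlap for Hmgcs1, Insig2 and Ebp. For Insig1, Scap and Sqle pool 1 sits below the other control pools and pool 5 above the other deletion pools.

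The placing of pools 1 and 5 was shared by many members. In pulldown 14 of 35 (40%) had pool 1 below pools 2 to 4 and pool 5 above pools 6 to 8, against 14.6% of all genes tested. Acat2, Idi1 and Acly had the reverse placing, whose share over all genes was not counted. Taken alone, pool 1 was below pools 2 to 4 in 22 members and above them in 5. Over the 16859 genes tested it was below in 4761 and above in 6464. Pool 5 was above pools 6 to 8 in 19 members and below in 6, against 5099 and 5071 genes. The members' median deviation from the mean of the 8 pulldown libraries was -0.08 (log2) in pool 1 and 0.07 to 0.11 in pools 2 to 4, and 0.05 in pool 5 and -0.09 to -0.02 in pools 6 to 8. With pools 1 and 5 left out together, 13 members passed, against 19.9% of 16918 genes. These pools were chosen after an earlier look at these data. Where they lie nearest the other genotype, leaving them out widens the difference, so the passes are no test of genotype. The values are a description of the 6 other libraries. Without pools 1 and 5 Hmgcs1 was higher at 0.22. The other 12 were lower, namely Insig1 at -0.43, Ebp at -0.42, Scap at -0.42, Sqle at -0.37, Msmo1 at -0.32, Dhcr7 at -0.31, Insig2 at -0.30, Npc1 at -0.30, Sc5d at -0.30, Cyp51 at -0.23, Fads1 at -0.19 and Elovl6 at -0.15. Without pool 1 alone Insig1, Insig2 and Scap passed, against 3.26% of 17069 genes. Without pool 5 alone Hmgcs1, Insig1, Insig2 and Ebp passed, against 7.37% of 17118 genes, so calls over all genes rose as well from 0.641%. Leaving out any other single pulldown library gave no passing member, against 0.111% to 0.175% of genes. Pool 1 also had the lowest summed Y-linked genes of the control pools, at 40.0 CPM against 72.3 to 83.5 CPM in pulldown and 46.8 against 84.2 to 98.7 CPM in input. Pool 5 was at 67.0 CPM in pulldown against 70.8 to 155 CPM in the other deletion pools. In input pool 5 lay within the range of those pools, at 82.8 CPM against 71.3 to 154 CPM. The part of the Y-linked difference in the placing of pools 1 and 5 was not tested.

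Summed astrocyte markers were at 528 to 591 CPM in control and 524 to 577 CPM in deletion pulldown, and 0 of 12 passed, with a median log2 difference of 0.19 and 11 of 12 at a positive value. Summed oligodendrocyte markers were at 131 to 152 and 137 to 170 CPM, with 0 of 12 passing and 9 of 12 at a positive value. Summed microglial markers were lower in deletion pulldown without overlap, at 12.28 to 12.32 CPM in control and 9.80 to 11.02 CPM in deletion. Of 8 tested, 0 passed and 6 were at a negative value (median -0.23), and none alone had groups without overlap. The mean log2 CPM of the 10 listed did overlap, at -2.27 to -1.67 in control and -2.08 to -1.46 in deletion. Summed vascular markers were at 3.85 to 6.46 CPM in control and 5.26 to 13.7 CPM in deletion pulldown, with 0 of 7 passing. Summed Y-linked genes, which vary with the number of males in a pool, were at 40.0 to 83.5 CPM in control and 67.0 to 155 CPM in deletion pulldown. With their mean as a covariate no member passed, and the part of these differences in the members' values was otherwise not tested. Of the other sterol and fatty acid genes tested in pulldown, 29 and 32, none passed, with 3 and 10 at an unadjusted p under 0.05.

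In input, where RNA of the whole hypothalamus was compared between genotypes, no member passed by edgeR's quasi-likelihood test, against 0.231% of 17735 genes. At an unadjusted p under 0.05 there were 2 members, against 14% of genes, DESeq2 called none, against 2.12%, limma on log2(TPM + 1) called none, and no member had groups without overlap, against 6.88%. Scap had 17.5, 19.1, 21.0 and 21.7 CPM in control and 19.7, 16.8, 15.2 and 17.1 CPM in deletion input, a difference of -0.21 (SE 0.09, adjusted p = 0.318). Hmgcs1 had 171, 166, 172 and 167 CPM in control and 166, 191, 185 and 188 CPM in deletion input, a difference of 0.11 (SE 0.05, adjusted p = 0.336). In both genes pool 5 lay on the control side of its group.

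Pmvk in input had 37.9, 36.6, 37.7 and 33.9 CPM in control and 37.2, 40.4, 42.8 and 38.3 CPM in deletion pools, a difference of 0.12 (SE 0.06, adjusted p = 0.388). Insig1 had 64.9, 67.5, 77.9 and 72.0 CPM in control and 73.9, 61.0, 58.7 and 61.9 CPM in deletion pools, a difference of -0.14 (SE 0.07, adjusted p = 0.408). Stard4 had 43.7, 46.0, 44.0 and 41.4 CPM in control and 48.2, 44.6, 47.8 and 46.9 CPM in deletion pools, a difference of 0.10 (SE 0.05, adjusted p = 0.41). All 3 had groups that overlapped. Srebf1 was at 0.02, Srebf2 at -0.04 and Scd2 at -0.03, each with an SE above its size. Without pools 1 and 5, 5 members passed in input, against 11% of 17838 genes. Hmgcs1 was higher at 0.16, and Scap at -0.33, Insig1 at -0.26, Sqle at -0.23 and Elovl6 at -0.23 were lower. Since these pools were chosen after an earlier look at these data, the values describe the other libraries and are no test of genotype. Among the other fatty acid genes Acsl6, an acyl-CoA synthetase, was lower in deletion input at -0.27 (SE 0.05, adjusted p = 0.0481), and no other sterol gene passed. Summed astrocyte markers were lower in deletion input without overlap, at 3585 to 4029 CPM in control and 3317 to 3532 CPM in deletion pools. Their mean log2 CPM overlapped by a narrow margin, at 6.81 to 6.881 in control and 6.781 to 6.811 in deletion pools. Of the 12 astrocyte markers 7 were at a negative and 5 at a positive value (median -0.04). Of these 12 markers 1 passed, Gja1 at -0.33 (SE 0.05, adjusted p = 0.00649), and 4 had groups without overlap, Gfap among them in the other direction at 0.25. Of 9 vascular markers none passed and 9 were at a positive value (median 0.41), and of 12 oligodendrocyte markers none passed. The part of these cells in the input values was not tested.

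Whether enrichment itself differed between genotypes was tested as an interaction over the 16 libraries. No member passed by edgeR's quasi-likelihood test, nor by DESeq2, against 0.0108% and 0.113% of 18530 genes. None passed by limma on log2(TPM + 1), and 4 members had an unadjusted p under 0.05, against 8.96%. Pmvk, higher in pulldown by 0.39 in control and 0.16 in the deletion pools, differed by -0.24 (SE 0.08, adjusted p = 0.41). Insig2, at 0.54 and 0.30, differed by -0.25 (SE 0.08, adjusted p = 0.413). Ebp, at 0.42 and -0.06, differed by -0.48 (SE 0.16, adjusted p = 0.43), and its deletion input ranged from 2.95 to 4.05 CPM. Lss, at -1.07 and -0.92, differed by 0.15 (SE 0.07, adjusted p = 0.551). It had 46.3, 43.7, 43.4 and 41.9 CPM in deletion input and 22.6, 22.8, 22.7 and 25.5 CPM in deletion pulldown, pool 8 being lowest in input and highest in pulldown. Fdps had 28.0, 25.1, 26.5 and 25.4 CPM in control input and 25.3, 26.4, 26.8 and 26.7 CPM in control pulldown. In the deletion pools it had 25.5, 28.2, 30.7 and 27.4 CPM in input and 25.5, 22.9, 25.5 and 28.0 CPM in pulldown. Its fractions overlapped in both genotypes, and the difference was -0.14 (SE 0.09, adjusted p = 0.684). The differences were -0.17 for Srebf1, 0.05 for Srebf2, -0.14 for Insig1 and 0.02 for Scd2, with an SE of 0.11 to 0.15. Ebp passed as higher in control and not in the deletion pools, and the test of that difference did not pass.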

How the data were processed

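The members, the gene lists and the alternatives were chosen with earlier results of these data known. RNA sequencing was done on input and pulldown of 8 hypothalamic pools. The authors deposited estimated counts per gene from Salmon 1.10.1 on GRCm38, per the submitters' processing notes, together with TPM values, counts rescaled from TPM, and result tables holding a log2 change and an adjusted p-value per gene; the notes also name DESeq2 1.38.3. The annotation release, trimming and strand setting are not given in the sources used here. Sample groups came from the labels, and no column of another series was present.

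Estimated counts were rounded and fitted in R 4.3.3 with edgeR 4.0.16, using TMM scaling, filterByExpr (minimum count 10, minimum total 15) and the quasi-likelihood test, with Benjamini-Hochberg adjustment over all genes tested and a threshold of 0.05. Each pair of groups was fitted on its own 8 libraries, and the interaction on all 16. The SE given is the size of the log2 change divided by the square root of the quasi-likelihood F statistic. It was not estimated separately. The pulldown comparisons of genotype share libraries with the enrichment comparisons. All members are named. Values per library are given for the 4 passing members with the smallest p per direction. Where fewer than 4 passed, they are given for the 5 members with the smallest p. They are always given for Srebf1, Srebf2, Insig1 and Scd2. Ebp in deletion input is given as a range only. Members outside this rule that are given with values were chosen after their values were seen. From each list of other genes up to 4 passing genes with the smallest p per direction are named, leaving out some that are not reported here.

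Input and pulldown of a number came from 1 lysate per the labels' extraction protocol, so the numbers pair them. The deviations of paired libraries from their group means correlated at -0.0061 to 0.157 over all genes kept, and above 0.1 in 1 of 8 pairs. Over 10869 genes with a mean log2 CPM of at least 2, a limit set after seeing these values, they correlated at 0.106 to 0.482. Replicates of a group differed by 7.76 to 46.5 times the variance of counting error, so none repeated another library.

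Alternatives were relative log expression or library totals for scaling, no filter or a mean CPM of at least 1, DESeq2 1.42.0, the rescaled counts, limma 3.58.1 on log2(TPM + 1) or log2(TPM + 0.1), removal of mitochondrially encoded genes, all 16 libraries in 1 fit, the pool as a block, each library left out, pools 1 and 5 left out together, and a Y-linked covariate. The fits were tested on simulated data.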

Additional observations from a re-analysis of the deposited data

Results flagged for a closer look

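In 8 of 140 sets of 4 libraries (35 members in 4 groups), 1 library lay far from the other 3, with a gap, relative to the whole range, above Dixon's critical value. Chance alone would flag about 1 set in 20 if the sets were independent. Genes measured in the same libraries are not independent, so the number flagged cannot be judged against chance. The libraries below are listed as a description. Control pool 1 stood apart for Cyp51 in input at 31.9 CPM (others 40.7 to 42) and in pulldown at 23.4 CPM (others 30.9 to 32.3), and for Insig1 in pulldown at 41.1 CPM (others 51.3 to 52.9). Lepr-deletion pool 5 stood apart in pulldown for Insig2 at 90.3 CPM (others 78.9 to 79.7) and Fads1 at 32.1 CPM (others 27.8 to 28.2). Pool 8 stood apart for Lss in pulldown at 25.5 CPM (others 22.6 to 22.8) and for Npc1 in input at 26.4 CPM (others 29.2 to 29.7). Control pool 3 stood apart for Idi1 in pulldown at 29.4 CPM (others 32.2 to 32.6).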

How the results depend on the processing

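Scaling moved the counts of members most. Under library totals, log2(TPM + 1) and log2(TPM + 0.1), in this order, 13, 26 and 26 members were higher and 9, 6 and 6 lower in control pulldown, and 12, 25 and 25 higher and 14, 6 and 6 lower in Lepr-deletion pulldown. The median of all genes moved by 0.55, 0.77 and 0.96 in control and by 0.46, 0.72 and 0.88 in the deletion pools, and the share of calls that were higher from 46.8% to 74.4%, 84.1% and 83.9% in the latter. A mean CPM of at least 1 left 1 member higher in the deletion pools. Leaving out each library gave 3 to 5 members higher and 25 to 26 lower in control, and 1 to 3 higher and 24 to 28 lower in the deletion pools. Between genotypes in pulldown, 3 members passed by DESeq2 (6.32% of all genes), 2 with all 16 libraries in the fit (2.74%), 13 without pools 1 and 5 (19.9%), and 0 to 4 without each library (3 without pool 1 and 4 without pool 5, against 3.26% and 7.37% of all genes, and 0 without each other, against 0.111% to 0.175%). In input 5 passed without pools 1 and 5 (11% of all genes), and 0 without each single library. Pools 1 and 5 were chosen after an earlier look at these data. The fits without them are a description and no test of genotype. No member passed for the change of enrichment in any of the settings run, leave-one-out fits included (0 to 0). With the replicate block, which pairs input and pulldown of a pool, 6 members were higher and 27 lower in control, 4 and 27 in the deletion pools, and 0 differed in enrichment; it changed no other call than the 4 given in the text.

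In the control pools the fold change of pulldown against input turned positive under library totals, log2(TPM + 1) and log2(TPM + 0.1), in this order, for Acat2 0.29 / 0.70 / 0.72, Mvk 0.38 / 0.71 / 0.79, Fdps 0.53 / 0.96 / 0.98, Fdft1 0.34 / 0.76 / 0.77, Sqle 0.31 / 0.72 / 0.75, Cyp51 0.13 / 0.51 / 0.54, Tm7sf2 0.054 / 0.43 / 0.54, Msmo1 0.031 / 0.48 / 0.49, Sc5d 0.092 / 0.51 / 0.53, Dhcr7 0.12 / 0.50 / 0.54, Insig1 0.015 / 0.41 / 0.42, Stard4 0.0042 / 0.40 / 0.43, Acaca 0.25 / 0.67 / 0.71 and Fasn 0.32 / 0.92 / 0.96. It turned positive under both log2(TPM) scales but not library totals for Hmgcs1 0.36 / 0.36, Mvd 0.28 / 0.32, Idi1 0.14 / 0.15, Nsdhl 0.40 / 0.42, Hsd17b7 0.16 / 0.18, Srebf2 0.35 / 0.39 and Elovl5 0.34 / 0.35. With rescaled counts, Fasn was at 0.0025 in control. In the Lepr-deletion pools the fold change of pulldown against input turned positive under library totals, log2(TPM + 1) and log2(TPM + 0.1), in this order, for Acat2 0.27 / 0.69 / 0.72, Mvk 0.28 / 0.66 / 0.73, Fdps 0.31 / 0.77 / 0.79, Fdft1 0.18 / 0.62 / 0.63, Sqle 0.094 / 0.53 / 0.55, Cyp51 0.034 / 0.45 / 0.47, Ebp 0.40 / 0.76 / 0.86, Acaca 0.29 / 0.72 / 0.76 and Fasn 0.32 / 0.67 / 0.70. It turned positive under both log2(TPM) scales but not library totals for Hmgcs1 0.37 / 0.38, Mvd 0.38 / 0.44, Idi1 0.052 / 0.054, Tm7sf2 0.34 / 0.44, Msmo1 0.29 / 0.30, Nsdhl 0.23 / 0.24, Hsd17b7 0.033 / 0.038, Sc5d 0.34 / 0.35, Dhcr7 0.30 / 0.33, Srebf2 0.33 / 0.36, Insig1 0.22 / 0.23, Stard4 0.31 / 0.33 and Elovl5 0.24 / 0.25. These scales shift all genes together, and the causes of the shift were not tested. With 4 pools a group, the SE on the log2 scale was 0.035 to 0.19 in control enrichment, where Acly passed at 0.12. Between genotypes in pulldown it was 0.0455 (Hmgcs1) to 0.199 (Tm7sf2), so small differences between genotypes may have gone undetected.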
